A study of Mus musculus with 14 samples.

Results

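Heme is made in a chain of enzyme steps that begins and ends in the mitochondrion and passes through the cytosol in between. Aminolevulinate synthase joins glycine and succinyl-CoA in the first step, and in the liver its ubiquitous form, encoded by Alas1, sets the rate of the whole chain, while red cell precursors use a separate form encoded by Alas2. Most liver heme goes into cytochromes P450, and free heme is known to lower Alas1 through its transcript, its import into mitochondria and its turnover. The genes followed here were Alas1 and 6 later enzymes, Alad, Uros, Urod, Cpox, Ppox and Fech, in the order of their steps. They were selected by symbol as 7 of the 54446 genes in the deposited table, and all 7 were among the 23554 genes that passed a filter on low values (10 or more in 6 or more libraries).

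Total RNA was sequenced from flash-frozen livers of C57BL/6 mice aged 5 weeks. The 6 controls carried a floxed Mettl3 gene without Cre, and the 8 knockouts carried floxed Mettl3 together with Alb-Cre, a recombinase under the albumin promoter, which is active in hepatocytes. The METTL3 protein is the methyltransferase that places N6-methyladenosine on mRNA. The comparison asks how loss of this gene from hepatocytes alters liver transcript levels; Alb-Cre does not act in other liver cells that lack albumin expression, and the labels give each library its own number without stating litter, sex or hour of collection.

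Values are the authors' normalised estimated counts per gene, and depth ranged from 11.1 M to 33.8 M estimated reads per library. Mettl3 itself fell from 223 ± 23.7 (SD, n = 6) to 99.5 ± 15.7 (SD, n = 8), with no overlap between the groups (log2 change -1.17, limma adjusted p = 1.32e-05). Xist and Y-linked transcripts, read because sex is not labelled, divided the libraries into a Y-positive class (replicates 1 to 4 of both groups) and an Xist-high class (controls 5 and 6, knockouts 5 to 8), and the Xist-high libraries were also the shallower ones, at 11.1 M to 19.3 M against 24.3 M to 33.8 M estimated reads. Knockouts 3, 6 and 7 stood apart from the other knockouts on the first principal component. Hepatocyte markers such as Alb were well expressed in every library. Their summed value was 932018 to 1125070 in controls and 460339 to 908205 in knockouts. Of the 10 markers 7 were called lower, against 11.0% of all genes, and 6 without knockouts 3, 6 and 7, against 9.24%. With every library scaled to the same sum outside ribosomal RNA, 5 were called lower, against 3.68%. In bulk liver, fewer hepatocytes and less RNA per hepatocyte cannot be told apart, and this holds for every gene below.

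Alas1 was the most reduced of the heme synthesis enzymes in Mettl3 knockout livers. Control libraries held 18293 to 26595 normalised estimated counts, with a median of 22840. Knockout libraries held 2923 to 11056, with a median of 6234. The groups did not overlap, as each of the 8 knockouts lay below the lowest control; knockouts lay wholly below controls in 4.02% of all genes. The mean fell from 22471 ± 3250 (SD, n = 6) to 6487 ± 2611 (SD, n = 8), which is 28.9% of the control mean, or 3.46-fold lower. On the log2(value + 1) scale the change was -1.89 (SE 0.24, limma adjusted p = 9.88e-05), and 130 of the 23554 genes tested (0.552%) had a more negative change.

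Alas1 was also the most variable of these enzymes among knockouts. Its coefficient of variation was 40.2% over the knockouts and 14.5% over the controls. The lowest knockout values were 2923 in replicate 1 and 3822 in replicate 2, and the highest was 11056 in replicate 5. The 3 knockouts that stood apart across all genes, replicates 3, 6 and 7, held 6763, 7900 and 5436 and so lay inside the range of the other knockouts. Without them the change was -1.97 (limma adjusted p = 0.000618).

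The 6 later enzymes were lower in the knockouts by smaller amounts, and 4 of them passed the test. Counting Alas1, 5 of the 7 enzymes were called lower at an adjusted p of at most 0.05, none was called higher, and their median log2 change was -0.46. Over all genes tested, 11.0% were called lower, 11.5% were called higher, and the median log2 change was 0.05.

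Alad encodes the cytosolic enzyme that condenses aminolevulinate into porphobilinogen. Its values ran from 1987 to 3692 in controls (median 2939) and from 1601 to 2751 in knockouts (median 2079). The ranges overlapped, and control 2 was the low exception among controls, with the next control at 2826. The mean fell from 2894 ± 544 (SD, n = 6) to 2148 ± 386 (SD, n = 8). The log2 change was -0.43, with an SE of 0.14 (limma adjusted p = 0.0417).

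Uros encodes the synthase that closes the tetrapyrrole ring, and it was, with Ppox, the least expressed member per length. Controls held 220 to 275 (median 245) and knockouts 182 to 280 (median 204). Knockout 5 lay above all controls, and 6 of the 8 knockouts lay below the lowest control. The difference did not pass the test (log2 change -0.21, SE 0.10, limma adjusted p = 0.164), although without knockout replicate 5 it did (-0.27, limma adjusted p = 0.0424). With any other library left out it did not, with a limma adjusted p of up to 0.288.

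Urod encodes the cytosolic decarboxylase that yields coproporphyrinogen. Its control values of 922 to 1712 (median 1485) were widely spread, with control 5 low at 922 and control 6 at 1263. Knockout values were 661 to 1229 (median 1049), below 5 of the 6 controls. The control mean was 1398 ± 274 (SD, n = 6) and the knockout mean 1006 ± 208 (SD, n = 8), a difference of -0.48 ± 0.16 (SE) in log2 (limma adjusted p = 0.0444).

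Cpox encodes the oxidase of the mitochondrial intermembrane space that turns coproporphyrinogen into protoporphyrinogen, and it had the largest change after Alas1. Controls held 1077 to 1655 (median 1272) and knockouts 640 to 1128 (median 926). Only knockout 5, at 1128, lay above the lowest control, and the other 7 knockouts lay below every control. The control mean was 1295 ± 210 (SD, n = 6) and the knockout mean 878 ± 182 (SD, n = 8), a difference of -0.57 ± 0.14 (SE) in log2 (limma adjusted p = 0.00985).

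Ppox encodes the inner membrane oxidase that produces protoporphyrin. Controls held 177 to 319 (median 229) and knockouts 151 to 230 (median 183). The overlap came mainly from control 2, the lowest control, and knockout 1, the highest knockout. The change of -0.35 did not pass the test (SE 0.13, limma adjusted p = 0.0638). It did without control replicate 2 (-0.43, limma adjusted p = 0.0265) or without knockout replicate 1 (-0.39, limma adjusted p = 0.0393), the libraries just named for the overlap. With any other library left out it did not pass, with a limma adjusted p of up to 0.153.

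Fech encodes ferrochelatase, which inserts iron into protoporphyrin in the last step. Controls held 3774 to 5075 (median 4594) and knockouts 2885 to 3798 (median 3047). Only knockouts 1 and 5, at 3798 and 3775, reached the lowest controls, which were the Xist-high controls 5 and 6 at 3774 and 3781. The control mean was 4468 ± 588 (SD, n = 6) and the knockout mean 3253 ± 403 (SD, n = 8), a difference of -0.46 ± 0.11 (SE) in log2 (limma adjusted p = 0.00644).

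The lowest value of each later enzyme was in knockout 6 (Alad, Uros, Ppox) or knockout 7 (Urod, Cpox, Fech). These libraries also had the lowest summed hepatocyte markers and the highest share of mitochondrially encoded mRNA, 7.85% and 7.91% against 2.77% to 5.47% in the other libraries; the part of these differences in the result was not tested. Without knockouts 3, 6 and 7, 2 of the 6 later enzymes were called lower against 9.24% of all genes, Cpox (-0.36, limma adjusted p = 0.0448) and Fech (-0.38, limma adjusted p = 0.0366). The calls of Alad and Urod lay near the threshold (limma adjusted p = 0.0417 and 0.0444). Leaving out any 1 of control replicates 1, 3, 4 and 6 or knockout replicates 3, 6 and 7 left 2 later enzymes called. Alad and Urod were both lost each time. With any 1 library left out, Alad lost its call in 10 cases and Urod in 9. Over all fits with 1 library left out, their log2 changes ran from -0.53 to -0.35 and from -0.59 to -0.40. In the authors' deposited table the q-values were 1.99e-10 for Alas1, 0.0264 for Alad, 0.366 for Uros, 0.0354 for Urod, 0.00179 for Cpox, 0.113 for Ppox and 0.00567 for Fech. At a deposited q of at most 0.05, 8.26% of all genes were lower.

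**Figure D1:**
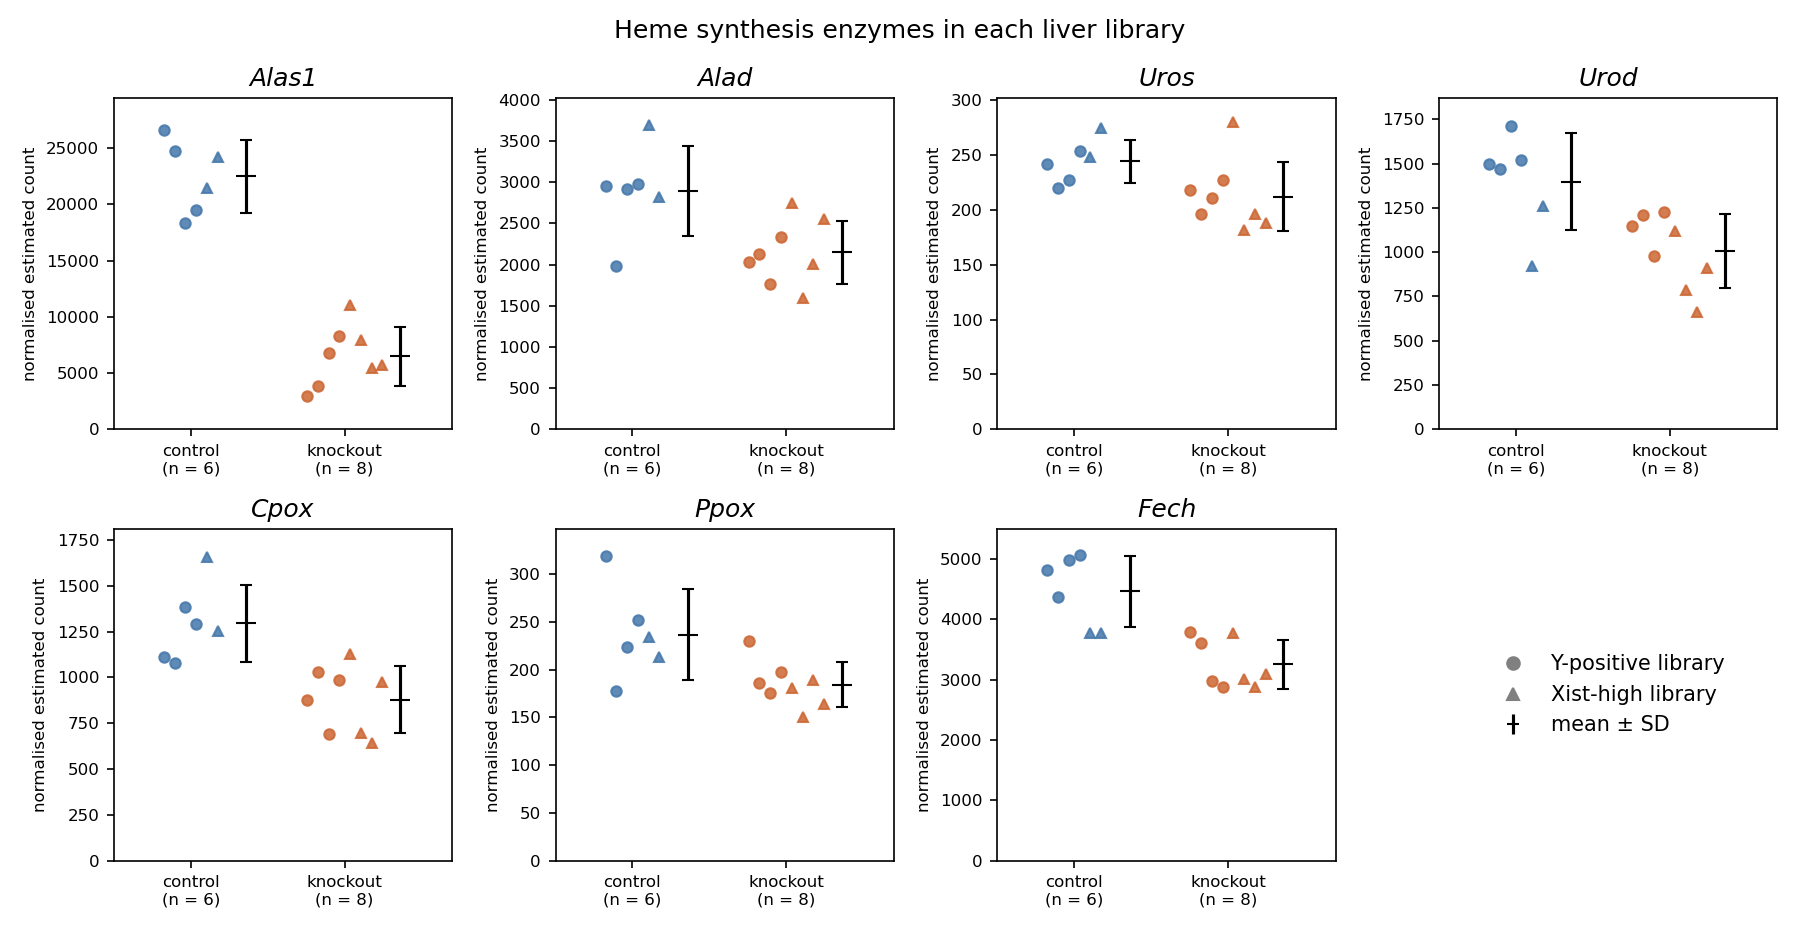
Each panel shows the normalised estimated count of one heme synthesis enzyme (linear axis from 0) in each of 6 control and 8 knockout livers, as circles for Y-positive and triangles for Xist-high libraries, with the mean and SD beside each group. Alas1 is separated, 18293 to 26595 in controls against 2923 to 11056 in knockouts, while the ranges of each of the later enzymes overlap.

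How far the later enzymes were reduced depended on the scaling of the libraries. The authors' size factors left control libraries with a sum of values of 24.05 M ± 2.43 (SD, n = 6) and knockout libraries with 19.1 M ± 1.37 (SD, n = 8). Bringing every library to the same sum outside ribosomal RNA raised the median log2 change of all genes by 0.33, and with it 33.3% of genes were called higher and 3.68% lower. On that scale Alas1 was still called lower (-1.55, limma adjusted p = 0.000361), but 0 of the 6 later enzymes were called by limma, and 0 of them had an unadjusted p of at most 0.05. Cpox stood at -0.23 (limma adjusted p = 0.180), Urod at -0.14, Fech at -0.12, Alad at -0.09 and Ppox at -0.01, while Uros turned to 0.13 (limma adjusted p = 0.384); the median of all genes was 0.38. With quantile normalization Alas1 changed by -1.46 (limma adjusted p = 0.000956) and 2 later enzymes, Cpox and Ppox, were called lower, against 10.2% of all genes.

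**Figure D2:**
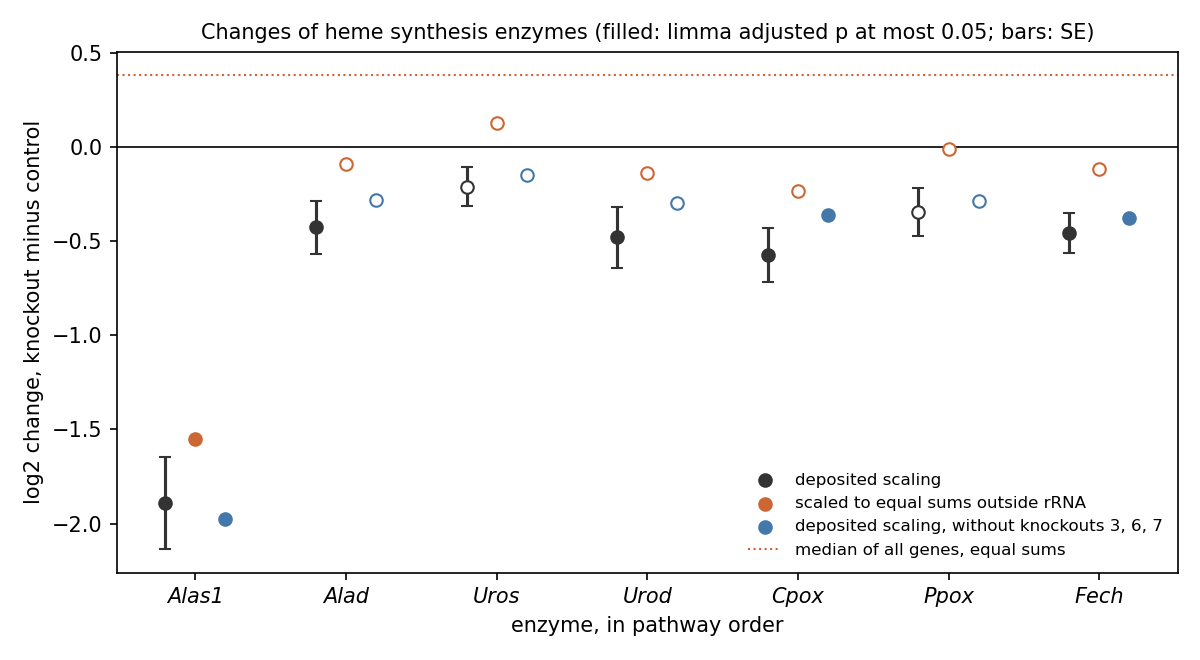
The log2 change (knockout minus control) of each enzyme in pathway order is drawn for the deposited scaling with its SE, for scaling to equal sums outside ribosomal RNA, and for the deposited scaling without knockouts 3, 6 and 7; filled points have a limma adjusted p of at most 0.05. Alas1 is filled in each of the 3 settings, at -1.89, -1.55 and -1.97, whereas no later enzyme is filled under equal sums, where the median of all genes is 0.38 (dotted line).

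Ratios within a library do not depend on its size factor, so Alas1 was compared with each later enzyme in this way. Alas1 fell relative to all 6. Its value was 7.82-fold that of Alad in controls and 2.84-fold in knockouts, as geometric means of counts not corrected for length. For Fech the log2 ratio of Alas1 ran from 1.87 to 2.68 in controls and from -0.38 to 1.55 in knockouts. In knockout 1 the ratio to Fech was below 0, so that this library held more Fech than Alas1 counts, which no other library did. The control and knockout ratios did not overlap for any of the 6 enzymes; this was so for 71.4% of all genes measured against Alas1.

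The later enzymes were less reduced than Alas1 by 1.32 (Cpox, SE 0.31, limma adjusted p = 0.000264) to 1.68 (Uros, SE 0.29, limma adjusted p = 7.87e-06) on the log2 scale. Fech differed by 1.43 (SE 0.32, limma adjusted p = 0.000139), Urod by 1.41, Alad by 1.46 and Ppox by 1.54. Of all 23553 other genes, 95.9% were called less reduced than Alas1, so the 6 of 6 later enzymes were near that background, and 41 genes (0.174%) were called more reduced. Without knockouts 3, 6 and 7 the differences were 1.60 (Fech) to 1.83 (Uros).

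**Figure D3:**
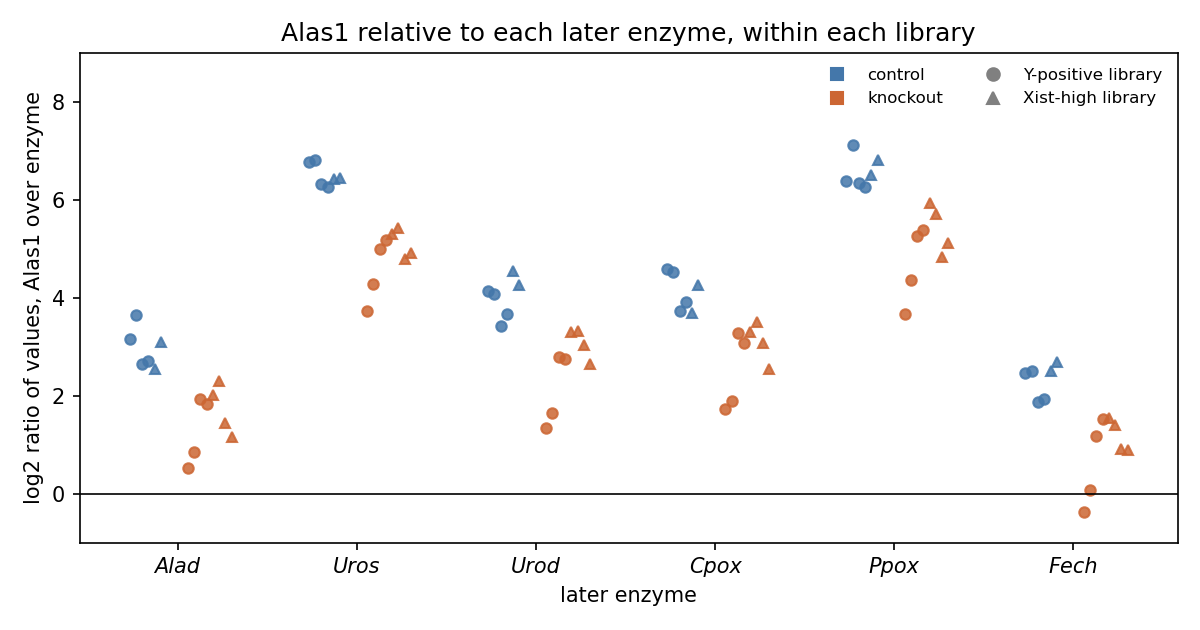
Points give the log2 ratio of the Alas1 value to that of each later enzyme within each library (not corrected for length), for controls and knockouts, with circles for Y-positive and triangles for Xist-high libraries. For every enzyme the control points lie above the knockout points, for Fech at 1.87 to 2.68 against -0.38 to 1.55.

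To place the enzymes on one scale, values were divided by the mean length of each gene's coding transcripts. In controls the order of levels per kb was Alas1 at 7823, Alad at 2360, Fech at 1149, Urod at 939, Cpox at 418, Uros at 165 and Ppox at 130. Ranges of neighbours in this order did not overlap except for Fech with Urod and Uros with Ppox. Fech has coding transcripts from 1753 to 6571 bases long, so its place is uncertain.

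In knockouts the order was the same, but the distance between the first 2 steps shrank. Alas1 stood at 2259 per kb (1018 to 3849) and Alad at 1751 per kb (1305 to 2243), so that their ranges overlapped and Alas1 was above Alad in 5 of 8 knockouts against 6 of 6 controls. The ratio of the mean levels per kb of Alas1 to Alad was 3.32 in controls and 1.29 in knockouts. The remaining levels in knockouts were 837 for Fech, 676 for Urod, 284 for Cpox, 143 for Uros and 101 for Ppox.

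**Figure D4:**
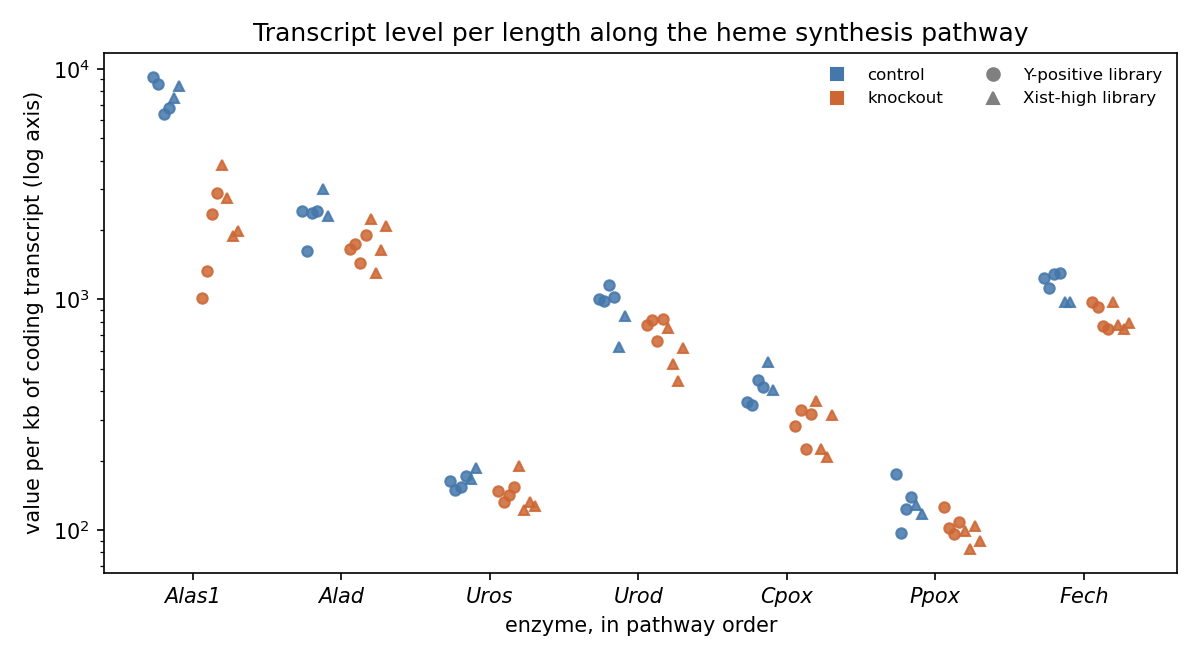
Each point is a library's value per kb of mean coding transcript length (log axis) for one enzyme, in pathway order, for controls and knockouts. Alas1 lies above all other enzymes in the controls (6369 to 9259) and overlaps Alad in the knockouts (1018 to 3849 against 1305 to 2243).

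Between the sex-linked classes the enzymes showed no called difference in their response. Alas1 fell in both classes. Its log2 change was -2.14 in the Y-positive libraries (4 controls and 4 knockouts, limma adjusted p = 0.00370). In the Xist-high libraries (2 controls and 4 knockouts) it was -1.66 and missed the threshold (limma adjusted p = 0.0657). Of all genes, 0.930% were called there. The interaction of genotype and class was called for 0 of the 7 enzymes and for 0.0552% of all genes (limma), and 0 of the 7 had an unadjusted p of at most 0.05. For Alas1 the change was 0.48 more negative in Y-positive than in Xist-high libraries (SE 0.49, limma adjusted p = 0.865). Among the later enzymes Urod and Fech were called lower within the Y-positive class (-0.44 and -0.54, limma adjusted p = 0.0263 and 0.0194), against 8.30% of genes lower there.

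Among controls, 2 of the 7 enzymes, Urod and Fech, lay wholly higher in the 4 Y-positive than in the 2 Xist-high libraries, as did 11.8% of all genes. Urod was 1471 to 1712 in Y-positive controls and 922 and 1263 in Xist-high controls, and Fech was 4369 to 5075 against 3774 and 3781. Alas2, the red cell form of the first enzyme, likewise did not overlap between them, at 1690 to 2891 against 396 and 495. In knockouts Alas2 was 632 to 1811 in Y-positive and 322 to 895 in Xist-high libraries, and its overall change of -0.69 did not pass the test (SE 0.49, limma adjusted p = 0.335).

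Red cell precursors make heme too, so their markers were read beside the enzymes. The summed level of the 11 erythroid markers measured was 6150 to 22100 in controls and 6636 to 14848 in knockouts. Of the 8 markers tested 0 were called in either direction by limma, against 22.4% of all genes. There was 1 at an unadjusted p of at most 0.05, and 0 were called by the authors' deposited q or with voom weights. Klf1, an erythroid regulator, was the nearest (limma adjusted p = 0.0586), and Hba-a1 and Hbb-bs stood at 0.04 and -0.18. Scaled to equal sums, 1 marker was called higher, against 33.3% of all genes. Slc4a1, the red cell anion exchanger, and Gata1, an erythroid transcription factor, did not pass the filter and reached at most 17.4 and 23.7 in any library. With the mean log2 erythroid marker level as a covariate, Alas1 changed by -1.95 (limma adjusted p = 0.000108), Cpox by -0.55 (0.0165), Fech by -0.40 (0.00416) and Urod by -0.40 (0.0420), each lower against 9.99% of all genes, and Alad at -0.43 missed the threshold (0.0550).

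Markers of other cell types were read in the same way. The summed level of 7 cholangiocyte markers was 1095 to 2030 in controls and 1721 to 4040 in knockouts. Of these 3 were called higher (Sox9, Spp1, Epcam), against 11.5% of all genes. Without knockouts 3, 6 and 7, 2 were called higher, against 2165 of the 23554 genes tested. Of 6 endothelial markers 2 were called lower, against 11.0% of all genes, and 1 without those knockouts, against 9.24%. Scaled to equal sums, 0 of them were called lower, against 3.68%. Of the Kupffer cell, stellate cell and lymphocyte lists (7 genes each) 0 were called by limma, against 22.4% of all genes. By the authors' deposited q or with voom weights 0 were called, and 1 stellate cell gene had an unadjusted p of at most 0.05. When knockouts 3, 6 and 7 were left out, 2 stellate cell genes were called lower (9.24% of all genes), and 0 Kupffer cell or lymphocyte genes were called. Scaled to equal sums, 1 gene of each list was called higher (33.3% of all genes). Ly6g, a neutrophil marker, was under 10 in every library. Their part in the change of the heme enzymes was not tested.

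The promoters of the enzymes were searched for letters bound by factors known to act on heme genes or on the circadian clock. RefSeq (GRCm38.p6) gave windows from 250 bases before to 50 bases after a start for 6 of the 7 members, 9 windows in all. Both overlapping windows of Alas1 held the palindromic letters of NRF1, a regulator of nuclear genes for mitochondria; these or a variant with 1 base changed were in 3.02% of 32851 windows, and in 1 window of Uros. The E-box CACGTG, read by CLOCK and BMAL1, was in both windows of Alad, in 1 window of Uros and in that of Urod, against 7.15% of all windows. Cpox and Ppox held neither, and the D-box (TTATGTAA, TTACGTAA or TTATGCAA; 1.78% of windows), the FOXO letters TGTTTAC (3.65%) and the TATA box letters TATAAA (13.6%) were in no window of these enzymes. Both strands were searched, and a match is a run of letters, not a site shown to be bound. The stretches around the NRF1 letters of Alas1, the E-box of Alad in its earlier window and the E-box of Urod are shown as examples of the matches in enzymes that fell; the other Alad window holds a separate E-box at -28 from its start, which is not shown. The letters begin at -195 from the later Alas1 start (29 bases after the earlier one), at -105 from the earlier Alad start and at -49 from the Urod start. All 3 stretches are on the minus strand, 5′ to 3′, with the matched letters in capitals.
Alas1, chr9:106247906-106247935: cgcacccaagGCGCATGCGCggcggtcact
Alad, chr4:62520138-62520193: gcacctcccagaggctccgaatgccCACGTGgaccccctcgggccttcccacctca
Urod, chr4:116994432-116994487: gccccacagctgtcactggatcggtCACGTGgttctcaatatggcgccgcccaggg

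Among 18 factors known to act on Alas1 transcription, 9 were called lower and 2 higher, against 11.0% and 11.5% of all genes. The largest decreases were those of Nr1i3 (CAR, a xenobiotic receptor), from 4396 ± 1195 to 1729 ± 664 (SD, n = 6 and 8; log2 change -1.42, SE 0.27, limma adjusted p = 0.00157), and of the clock output factors Dbp (-1.16, SE 0.17, limma adjusted p = 0.000266) and Tef (-1.09, SE 0.14, limma adjusted p = 7.37e-05). Control and knockout values did not overlap for any of these 3. Nr1h4 (FXR, the bile acid receptor) changed by -0.83, Nr3c1 (the glucocorticoid receptor) by -0.54, Nr1i2 (PXR) by -0.53 and Hnf4a by -0.52. These also did not overlap, and knockouts lay wholly below controls in 4.02% of all genes. Bach1, which binds heme, changed by -0.38 and the corepressor Ncor1 by -0.27, with overlapping groups.

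Arntl, which encodes the clock activator BMAL1, rose from 68.9 ± 13.1 to 222 ± 91.7 (SD, n = 6 and 8; log2 change 1.59, SE 0.25, limma adjusted p = 0.000410), without overlap (knockouts lay wholly above controls in 4.14% of all genes), and Foxo1 rose by 0.47 (limma adjusted p = 0.0333). Ppargc1a, the coactivator through which fasting raises Alas1, stood at 0.27 (SE 0.18, limma adjusted p = 0.310) and Nrf1 at 0.02 (SE 0.10, limma adjusted p = 0.907). The heme-binding repressors Nr1d1 and Nr1d2 stood at -0.51 and -0.30, Hlf at -0.33, Rxra at -0.31 and Hdac3 at 0.18, none of them called. Under equal sums 4 of the 18 (Nr1i3, Dbp, Tef and Nr1h4) were called lower and 5 higher, against 3.68% and 33.3% of all genes. Nr3c1, Nr1i2, Hnf4a, Bach1 and Ncor1 were no longer called lower, and Nr1d2, Ncor1, Rxra and Hlf changed sign. Without knockouts 3, 6 and 7, 10 were called lower and 2 higher, against 2176 and 2165 of the 23554 genes tested.

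Among 15 tested genes that carry heme, porphyrins, iron and glycine between compartments, 5 were called lower and 1 higher. Their median was -0.06, against 11.0% and 11.5% of all genes called lower and higher. With 1 library left out, 1 to 5 were called lower and 0 to 1 higher. Under equal sums 0 were lower and 5 higher, against 3.68% and 33.3%. Without knockouts 3, 6 and 7, 2 were lower and 0 higher, against 2176 and 2165 of the 23554 genes tested. Abcb10, a mitochondrial inner membrane transporter of heme-forming cells, fell from 962 ± 236 to 596 ± 180 (SD, n = 6 and 8; log2 change -0.72, SE 0.22, limma adjusted p = 0.0277). Slc25a38, which brings glycine into mitochondria, changed by -0.67 (SE 0.21, limma adjusted p = 0.0306), and Pgrmc1, a heme-binding partner of Fech and P450 enzymes, by -0.49 (SE 0.14, limma adjusted p = 0.0177). The control and knockout ranges overlapped for each of the 3.

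Genes listed around the supply of glycine and succinyl-CoA, the substrates of the first step, were called lower in 5 of 10 cases and higher in 1. Their median was -0.34, against 11.0% and 11.5% of all genes called lower and higher. Sucla2, a succinyl-CoA synthetase subunit, fell from 1054 ± 83.4 to 776 ± 107 (SD, n = 6 and 8; log2 change -0.45, SE 0.10, limma adjusted p = 0.00496) with no overlap. The mitochondrial citrate carrier Slc25a1 (-0.60, limma adjusted p = 0.0265) and the cytosolic serine hydroxymethyltransferase Shmt1 (-0.58, limma adjusted p = 0.0407) were also lower, with overlap. Slc25a1 is counted in the list but carries neither substrate. Under equal sums 0 of the 10 were called lower and 4 higher, against 3.68% and 33.3%. Without knockouts 3, 6 and 7, 2 were lower and 1 higher, against 2176 and 2165 of the 23554 genes tested.

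Most genes for turning heme into heme a, attaching heme to cytochrome c and feeding electrons to these steps rose. Of 5 genes, 4 were called higher and 0 lower (median 0.44), against 11.5% and 11.0% of all genes. Under equal sums 5 were higher (33.3% of all genes). Without knockouts 3, 6 and 7, 3 were higher, against 2165 of the 23554 genes tested. Fdx2, a mitochondrial ferredoxin listed under the older symbol Fdx1l, rose from 353 ± 58.3 to 909 ± 184 (SD, n = 6 and 8; log2 change 1.35, SE 0.14, limma adjusted p = 1.26e-05) without overlap. Cox10, which makes heme o, rose by 0.47 (SE 0.13, limma adjusted p = 0.0166) and Cox15, which makes heme a, by 0.44 (SE 0.12, limma adjusted p = 0.0179).

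Of 9 genes of heme scavenging and degradation, none was called in either direction (limma; 3 at an unadjusted p of at most 0.05, 1 by the authors' deposited q, 0 with voom weights), against 22.4% of all genes; 3 were called higher under equal sums (33.3% of all genes). Hp, the plasma binder of hemoglobin, had the smallest p (48691 ± 13639 against 78405 ± 24888, SD, n = 6 and 8; log2 change 0.67, limma adjusted p = 0.0586). Of 3 mitochondrial proteases that turn over ALAS1 protein, none was called by limma. Of these, 1 had an unadjusted p of at most 0.05, and 0 were called by the authors' deposited q or with voom weights. Clpx stood at 0.40 (limma adjusted p = 0.0954), and 2 were called higher under equal sums (33.3% of all genes).

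Hepatocyte proteins that carry heme were called lower in 12 of 20 cases and higher in 2 (median -0.72), against 11.0% and 11.5% of all genes. Under equal sums 6 were lower and 3 higher, against 3.68% and 33.3%. Without knockouts 3, 6 and 7, 7 were lower and 1 higher, against 2176 and 2165 of the 23554 genes tested. Cyp2b10, a P450 induced through CAR, rose from 108 ± 139 to 814 ± 401 (SD, n = 6 and 8; log2 change 3.71, SE 0.62, limma adjusted p = 0.000644) without overlap. Cyp7b1, an oxysterol hydroxylase, changed by -3.44 (SE 0.67, limma adjusted p = 0.00188) and Cyp8b1, a sterol hydroxylase of bile acid synthesis, by -1.77 (SE 0.34, limma adjusted p = 0.00170). Cyp7b1 spread from 299 to 5285 among controls and overlapped the knockouts, which held 45.3 to 397, while Cyp8b1 did not overlap.

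Of 14 genes of iron uptake, storage and sensing, 4 were called lower and 2 higher (median -0.07), against 11.0% and 11.5% of all genes. Under equal sums 2 were lower and 6 higher, against 3.68% and 33.3%. Without knockouts 3, 6 and 7, 2 were lower and 2 higher, against 2176 and 2165 of the 23554 genes tested. Hjv, a coreceptor for signals that raise hepcidin, is listed as Hfe2. It rose from 1265 ± 316 to 2507 ± 272 (SD, n = 6 and 8, log2 change 1.01, SE 0.13, limma adjusted p = 0.000118). Steap3, a ferrireductase, rose from 474 ± 77.2 to 932 ± 108 (0.98, SE 0.11, limma adjusted p = 3.28e-05). Both were without overlap. Tfr2, a hepatocyte iron sensor, fell from 3647 ± 693 to 1931 ± 579 (-0.95, SE 0.18, limma adjusted p = 0.00179) with overlap.

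**Figure D5:**
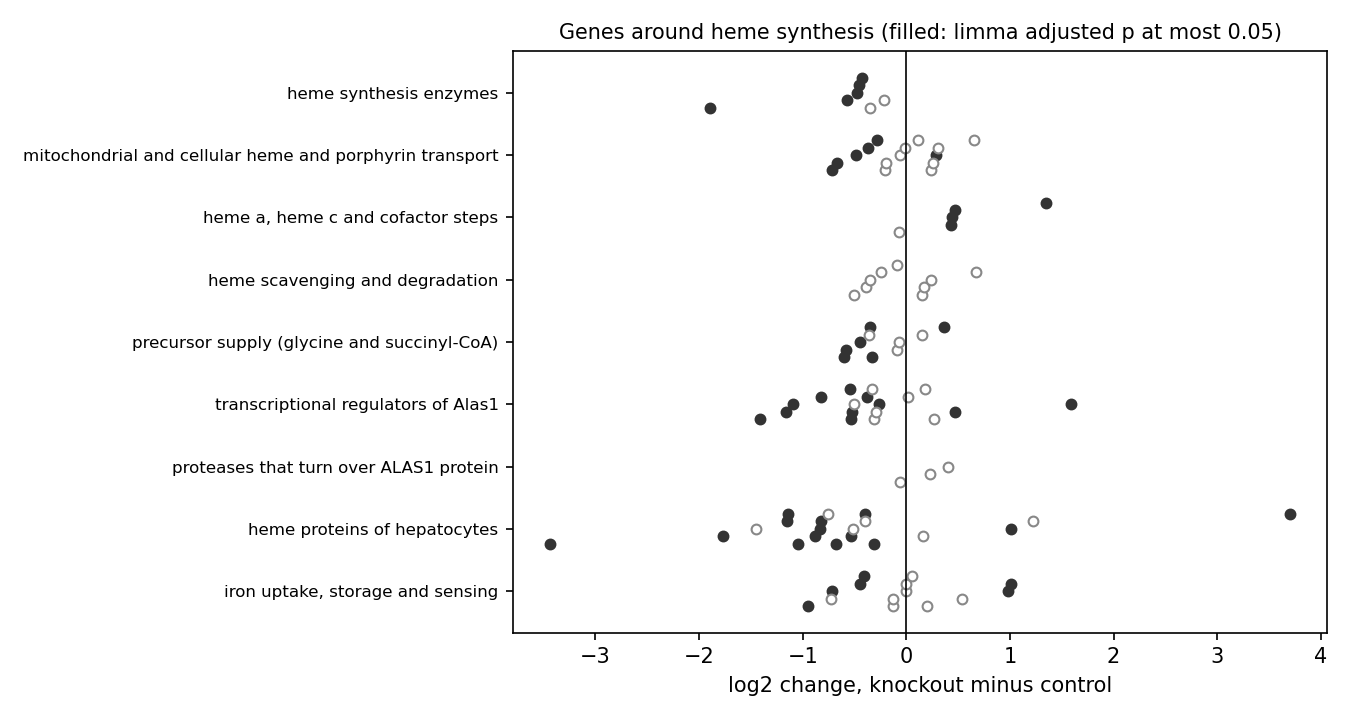
Each point is the log2 change (knockout minus control, deposited scaling) of one gene, grouped by its part in or around heme synthesis; filled points have a limma adjusted p of at most 0.05. The synthesis enzymes lie from -1.89 (Alas1) to -0.21 (Uros), while 4 of the 5 genes of the heme a and heme c steps are filled to the right of 0.

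The genes whose course over the 14 libraries lay closest to that of Alas1, by the root mean square difference in log2 relative to each gene's control mean, were Pfkfb3 (0.463), Coq10b (0.486), Noct (0.491), Usp2 (0.512) and Igfbp2 (0.515), among 10460 genes with a level above the median. Their log2 changes were -1.43 (Coq10b) to -1.81 (Pfkfb3), and a fall near that of Alas1 follows from how they were chosen. Pfkfb3 encodes a regulator of glycolysis, Noct a clock-controlled phosphatase, Usp2 a deubiquitinase, Igfbp2 a binding protein of insulin-like growth factors and Coq10b a coenzyme Q chaperone. The later heme enzymes lay farther off, at 1.13 (Cpox) to 1.34 (Uros), with 8.97% to 29.3% of the candidate genes closer to Alas1 than they were. The measure was taken over libraries of both groups, so it follows the difference between the groups as well as the spread within them.

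The positions of the genes on GRCm38 (GENCODE M21) bear on how far their reads can be assigned. Alas1 spans chr9:106233455-106248654, Alad chr4:62509169-62519918, Uros chr7:133686243-133710072, Urod chr4:116989965-116994413 and Ppox chr1:171275990-171281186, all on the minus strand, Cpox spans chr16:58670292-58717636 on the plus strand, and Fech lies on chromosome 18, minus strand. The spans of 4 members, introns included, overlap the span of a gene on the opposite strand. Alas1 shares 695 bases with the antisense gene 4930500F10Rik, Uros 740 with Bccip, Cpox 204 with Gpr15 and Ppox 907 with B4galt3. How much of each shared stretch is exon was not measured. The kit keeps strand but the counting setting is not given in the sources used here, so reads in these stretches are uncertain.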

How the data were processed

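Liver total RNA of 6 controls and 8 knockouts was measured. Trizol RNA went into a strand-keeping total RNA kit for low input, per the labels' protocols. The submitters' processing notes name kallisto, sleuth and mm10; versions are not given in the sources used here. The authors deposited 1 table, reduced here to 1 line per gene. The signal values that the authors deposited for each library were estimated counts after division by 1 size factor, as read from the values: 27.9% to 29.8% of low values were whole multiples of 1 read (within 0.02), so a count test was not used. The deposited p-value and q-value columns came from the authors' Wald test. The change the authors deposited was a natural log of value + 0.5, control minus knockout.

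The main test was limma 3.58.1 (R 4.3.3) with a trended prior on log2(value + 1), knockout minus control, over 23554 genes that reached 10 or more in 6 or more libraries. P values were adjusted by Benjamini-Hochberg over all of them, and at most 0.05 was called. Ratios used each gene's log2 minus that of Alas1. The labels number the libraries but do not tie them to animals or batches, so p-values measure the spread between these libraries. Levels per kb used the mean length of coding transcripts in the GENCODE basic set. The fits were first tested on simulated data.

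The members and lists were chosen with earlier results of these data known. Named genes were the 7 enzymes, Mettl3, up to 3 called genes per list, by size of change (or the smallest p where none was called), every regulator of Alas1, Alas2, Hba-a1 and Hbb-bs, markers at or near 0, and the 5 genes closest to Alas1. Sox9, Spp1, Epcam and Klf1 were named after their values were seen. Alternatives were other filters, pseudocounts of 0.1 and 0.5, scaling, voom weights, covariates, each class alone, libraries left out, the replicate number as a block and a threshold of 0.01. The erythroid covariate was added after seeing the data, as were the alternatives for lists and for ratios under other scalings. Of the genes that the rule names, 1 is not reported here.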

Additional observations from a re-analysis of the deposited data

Results flagged for a closer look

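In 4 of 102 gene groups checked, 1 library lay farther from its nearest neighbour than Dixon's 95% limit allows for a group of that size, and chance alone flags about 1 in 20 groups. Uros was 280 in knockout 5, where the next knockout was 227 and the lowest 182. Cyp7b1 was 397 in knockout 1, where the next knockout was 208. Hba-a1 was 1564 in control 3, where the next control was 692. Coq10b was 363 in knockout 6, where the next knockout was 244.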

How the results depend on the processing

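The fall of Alas1 was called under every alternative except the Xist-high libraries alone (-1.66, limma adjusted p = 0.0657), and leaving out 1 library at a time gave -2.02 to -1.74. The number of later enzymes called (4) was 2 without a filter, with quantile normalization, in the Y-positive libraries alone, without knockouts 3, 6 and 7, with the replicate block and at a threshold of 0.01. It was 0 under equal sums and in the Xist-high libraries alone, and 2 to 5 with 1 library left out. All genes called (5280) became 8699 under equal sums, 219 in the Xist-high libraries, 2669 at a threshold of 0.01 and 4228 to 5655 with 1 library left out. The difference between Alas1 and Cpox missed the threshold in the Xist-high libraries alone (0.88, limma adjusted p = 0.0762). Equal replicate numbers did not pair the libraries: the correlation of deviations from the group means was 0.0707 for replicate 3 and 0.142 to 0.228 for the others, and only controls 2 and 4 correlated best with their own number. With the replicate block, 3954 genes were called and Alas1 changed by -1.85 (limma adjusted p = 0.00409); Fech (-0.42, limma adjusted p = 0.0582) and Urod (-0.36, limma adjusted p = 0.113) lost their calls, while Alad (limma adjusted p = 0.0438) and Cpox (limma adjusted p = 0.0286) were called. Fech was also not called with quantile normalization (-0.20, limma adjusted p = 0.151). Signs turned for some named genes, of which Pgrmc1 and Ncor1 had been called. Under equal sums Uros was 0.13, Nr1d2 0.043, Ncor1 0.072, Rxra 0.028, Hlf 0.0045 and Hbb-bs 0.16. With quantile normalization Pgrmc1 was 0.085 and Hbb-bs 0.019. In the Xist-high libraries Alas2 was 0.36 and Hbb-bs 0.57; in the Y-positive libraries Nrf1 was -0.061 and Hba-a1 -0.46. Without knockouts 3, 6 and 7 Nrf1 was -0.025 and Hba-a1 -0.028. With 1 library left out, Nrf1 ran from -0.049 to 0.059, Hba-a1 from -0.12 to 0.30 and Hbb-bs from -0.32 to 0.0059. The cause was not tested. Depth limits Uros and Ppox most, with at least 101 estimated reads in every library.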
